A study of Saccharomyces cerevisiae with 7 samples.

Results

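The 35 genes described here cover sulfate assimilation and methionine metabolism of budding yeast, from the sulfate permeases to the synthesis of S-adenosylmethionine, with their transcriptional regulators. They were taken by gene symbol from the annotation of the array, with 1 probeset for each gene, and make up 35 of the 5449 S. cerevisiae genes that the array names here. Each of the 35 had exactly 1 usable probeset (the group of short probes that reads a transcript), so no choice between probesets was needed. Total RNA came from 7 cultures of S. cerevisiae strain NRRL Y-12632 (genotype cir+) after 24 h of growth, 4 in YPD made with simulated asbestos mine drainage and 3 in YPD made with plain water. The drainage was a filtered leachate of chrysotile mine tailings. The study's media analysis gives the medium made with it more magnesium, sulfate, chloride, calcium, iron and nitrate and a higher pH than control medium. All cultures were started from a single pre-culture in control medium, so the controls share strain, inoculum and growth time with the exposed cultures. Cells were sampled at a single time point, and no other strain was measured.

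Yeast can make all of its methionine and cysteine from inorganic sulfate. Sulfate is taken up, coupled to ATP, reduced to sulfite and then to sulfide, and sulfide is joined to a homoserine derivative to give homocysteine. Homocysteine is methylated to methionine, the precursor of S-adenosylmethionine, the main methyl donor of the cell, or is turned into cysteine by transsulfuration. The genes are switched on by the activator Met4, which is brought to promoters by Cbf1 or by Met31 and Met32 and is held in check by the ubiquitin ligase subunit Met30 when sulfur amino acids are plentiful.

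The values were RMA log2 signals, on which a difference of 1 is a doubling. They ran from 0.163 to 12.8 over the array, and the correlation between arrays over S. cerevisiae probesets was 0.983 to 0.994 within groups and 0.962 to 0.983 between them. Of the 35 probesets, 34 lay above 1.52, the 95th percentile of the 1747 Schizosaccharomyces pombe probesets, on all 7 arrays. The exception was BDS1, which lay above it on 6 arrays. The mean difference between 3' and 5' probesets of 8 control transcripts, a measure of RNA and target quality, was 0.495 to 0.866 in mine drainage and 0.792 to 1.14 in control (exact permutation test over 35 splits, two-sided, p = 0.114). The hybridization controls averaged 9.95 ± 0.211 (SD, n = 4) in mine drainage and 9.53 ± 0.176 (SD, n = 3) in control (exact permutation p = 0.0857). Their part in the results below was not tested, other than with the former as a covariate. Each array averages over a culture, so that fewer cells with a transcript and less transcript per cell cannot be told apart.

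Of the 35 genes, 8 fell and 4 rose in mine drainage at an adjusted p under 0.05 from limma, with adjustment over all 5498 S. cerevisiae probesets. The falls were in sulfate activation and reduction (MET14, MET16, MET10), in the supply of methyl groups (MET13), in the step from cysteine to cystathionine (STR2), in the use of S-methylmethionine (MHT1, MMP1) and in the regulator gene MET32. The rises were in the synthesis and use of S-adenosylmethionine (SAM1, SAM2, SAM4) and in cysteine synthesis (CYS3). Calls were common over the whole array, where 17.1% of probesets fell, 14.5% rose and 31.6% passed in either direction. Against these, 22.9% of the 35 genes fell, 11.4% rose and 34.3% passed, so the shares lay near the background. The counts by step given below rest on few genes each and are to be read beside the same shares. The median difference was -0.06 over the 35 genes and -0.03 over all probesets, and 21 of the 35 differences were negative.

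**Figure D1:**
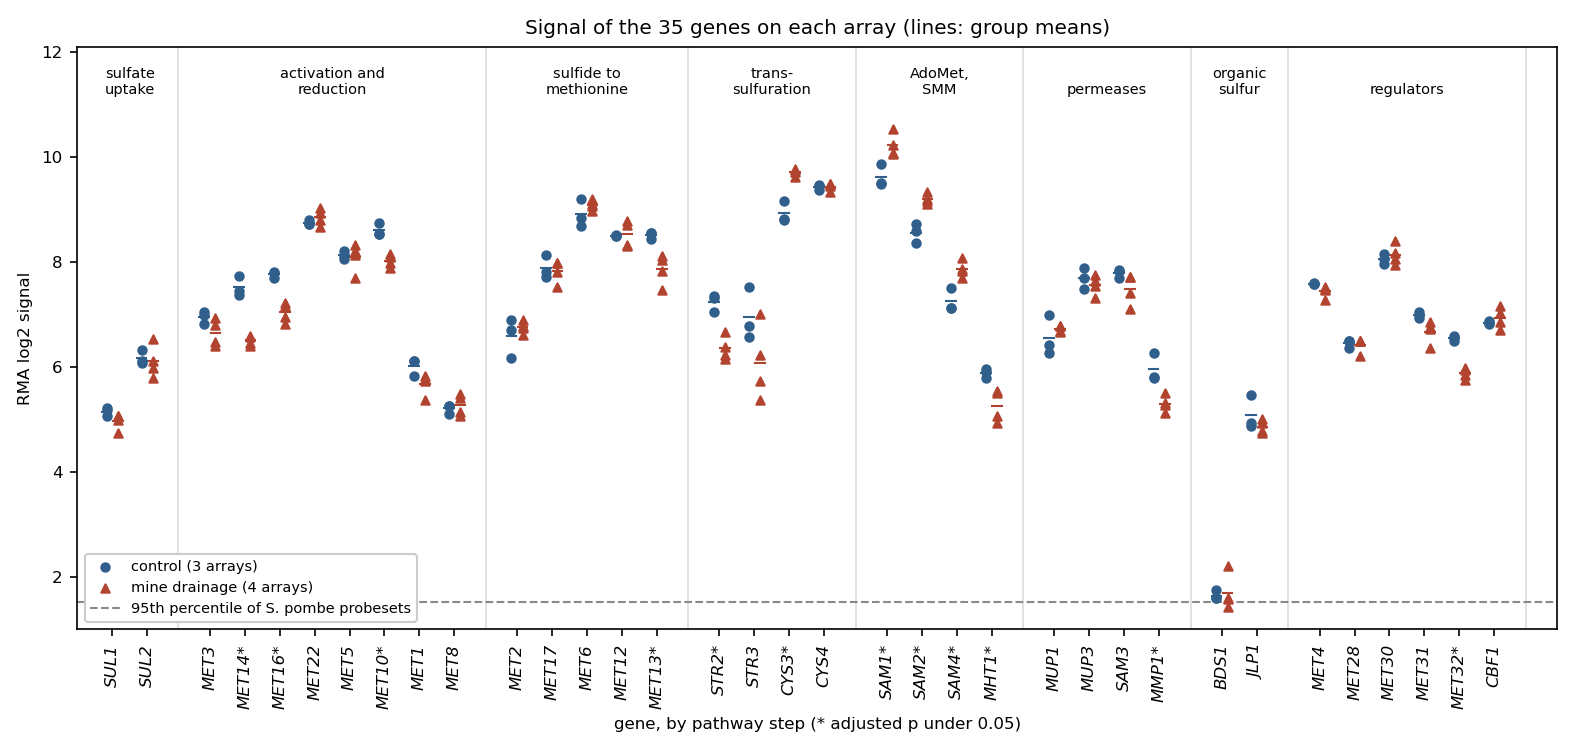
RMA log2 signal (y axis) of each of the 35 genes (x axis, ordered by pathway step) on the 3 control arrays (blue circles) and the 4 mine drainage arrays (red triangles), with short lines at the group means and a dashed line at 1.52, the 95th percentile of S. pombe probesets. Genes with an asterisk passed an adjusted p of 0.05, and in each of these 12 the groups do not overlap; heights of different genes are not comparable, since probes differ in their response.

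Neither sulfate permease gene passed the test. SUL1, a high-affinity permease, had a log2 signal of 5.07, 4.75, 4.99 and 5.07 on mine drainage arrays 1 to 4 and of 5.07, 5.17 and 5.22 on control arrays 1 to 3. SUL2, the second high-affinity permease, had 6.53, 5.80, 6.12 and 5.99 against 6.08, 6.12 and 6.32. In both genes the groups overlapped. The differences were -0.19 for SUL1 (95% interval -0.43 to 0.05, adjusted p = 0.208) and -0.06 for SUL2 (-0.43 to 0.30, adjusted p = 0.786), and both intervals lie inside a 1.5-fold change.

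In sulfate activation and reduction 3 of 8 genes fell and none rose. MET14 encodes the kinase that adds a second phosphate to activated sulfate. Its log2 signal was 6.41, 6.59, 6.58 and 6.46 in mine drainage and 7.73, 7.45 and 7.37 in control. Every mine drainage array lay at least 0.79 below every control array, a gap several times the SD of 0.091 within mine drainage and 0.186 within control. The mean was 2.01-fold lower (difference -1.01, standard error 0.11, adjusted p = 0.00149 from limma), and its difference ranked 30 from the lowest of the 5498 probesets. MET16, the reductase that turns the activated sulfate into sulfite, had 7.16, 6.82, 7.22 and 6.95 against 7.80, 7.82 and 7.70, without overlap. It was 1.66-fold lower (adjusted p = 0.00358 from limma).

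MET10 and MET5 encode the 2 subunits of sulfite reductase, the enzyme that makes sulfide, and the difference between their responses was not tested. MET10, the alpha subunit, had 7.98, 7.88, 8.10 and 8.15 in mine drainage and 8.53, 8.54 and 8.74 in control, and was 1.49-fold lower (difference -0.58, standard error 0.10, adjusted p = 0.00516 from limma). MET5, the beta subunit, ranged from 7.70 to 8.33 in mine drainage and from 8.06 to 8.22 in control (difference -0.04, adjusted p = 0.872), with the controls inside the mine drainage range. MET3, the ATP sulfurylase that opens the pathway, differed by -0.30 and did not pass (95% interval -0.62 to 0.02, adjusted p = 0.131), and its groups overlapped. MET1, of siroheme synthesis for sulfite reductase, differed by -0.34 (adjusted p = 0.0751). MET8, which completes siroheme, differed by 0.06, and MET22, the phosphatase that clears the by-product of sulfate reduction, by 0.11 (adjusted p = 0.738 and 0.47).

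**Figure D2:**
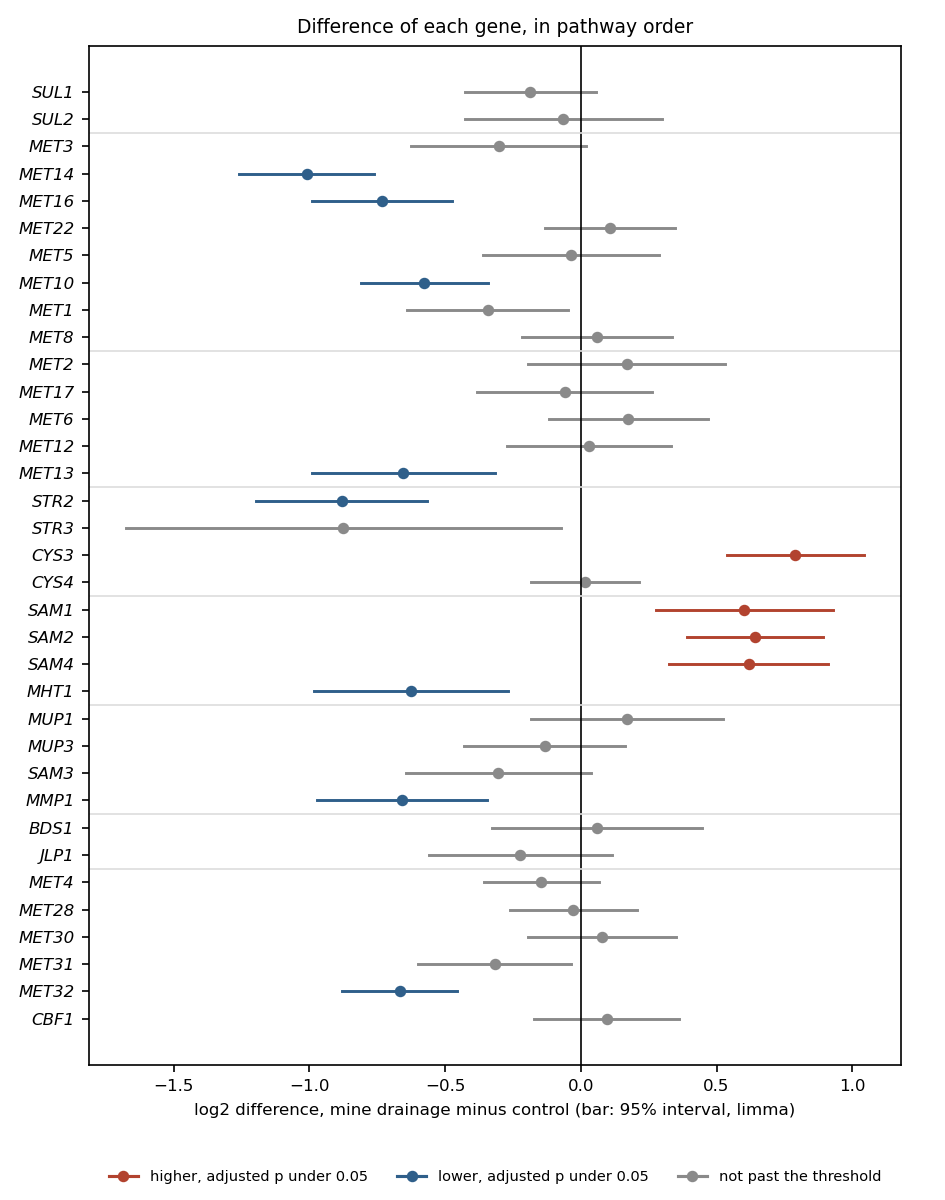
Log2 difference between mine drainage (4 arrays) and control (3 arrays) for the 35 genes (y axis, in pathway order, with grey lines between steps); points are limma estimates and bars their 95% intervals. Blue genes passed an adjusted p of 0.05 as lower, from MET14 at -1.01 to MET10 at -0.58, red genes as higher, from SAM1 at 0.60 to CYS3 at 0.79, and STR3 has the widest interval, -1.68 to -0.07.

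Between sulfide and methionine, 1 of 5 genes fell. MET13 encodes the main methylenetetrahydrofolate reductase, which makes the methyl donor for methionine synthesis. Its signal was 8.11, 7.46, 8.05 and 7.84 in mine drainage and 8.55, 8.44 and 8.56 in control, 1.57-fold lower and without overlap (difference -0.65, standard error 0.15, adjusted p = 0.0118 from limma). Mine drainage replicate 2 was the lowest, and the spread within mine drainage (SD 0.293) exceeded that within control (SD 0.0659). MET2, which makes the acetylhomoserine that accepts sulfide, and MET17, which joins them to homocysteine, differed by 0.17 and -0.06 (adjusted p = 0.447 and 0.779). MET6, the methionine synthase, and MET12, the second reductase gene, differed by 0.17 and 0.03 (adjusted p = 0.329 and 0.881). For these 4 genes the arrays of the groups overlapped and the 95% intervals, at most -0.38 to 0.53, lie inside a 1.5-fold change. A gene-by-gene comparison like the study's, which does not share the spread across genes, was also run here. In it MET13 missed the adjusted threshold (adjusted p = 0.0661). The study itself defined its genes by another threshold, an unadjusted p under 0.05 with a 1.5-fold change. It also reported a stricter filter, a false discovery rate of 0.05.

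The transsulfuration genes went both ways, with 1 of 4 higher and 1 lower. STR2, the cystathionine gamma-synthase, and STR3, the cystathionine beta-lyase, lead from cysteine to homocysteine, while CYS4, the cystathionine beta-synthase, and CYS3, the cystathionine gamma-lyase, lead from homocysteine to cysteine. CYS3 was at 9.71, 9.76, 9.77 and 9.63 in mine drainage and at 9.17, 8.82 and 8.80 in control. It was 1.73-fold higher (difference 0.79, standard error 0.11, adjusted p = 0.00263 from limma), and the mine drainage arrays lay closer together than the controls. STR2 was at 6.23, 6.67, 6.39 and 6.15 against 7.05, 7.32 and 7.35, 1.84-fold lower and without overlap (difference -0.88, standard error 0.14, adjusted p = 0.00365 from limma).

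STR3 had nearly the same mean difference as STR2, -0.87, but with 6.23, 5.37, 7.004 and 5.73 in mine drainage and 7.52, 6.58 and 6.78 in control it was the most variable of the 35 genes. Mine drainage replicate 3 lay above control replicates 2 and 3, and STR3 did not pass (standard error 0.36, adjusted p = 0.089 from limma). Without that replicate the difference was -1.18 (adjusted p = 0.0252). With other single arrays left out instead, the adjusted p of STR3 from limma reached 0.264. CYS4 was at 9.35 to 9.49 in mine drainage and 9.37 to 9.46 in control, a difference of 0.02 (95% interval -0.18 to 0.21).

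All 4 genes of S-adenosylmethionine and S-methylmethionine metabolism passed, 3 higher and 1 lower, where 31.6% of all probesets passed. SAM1 and SAM2 encode closely related S-adenosylmethionine synthetases. SAM1 was at 10.54, 10.08, 10.06 and 10.23 in mine drainage and 9.88, 9.51 and 9.48 in control, 1.52-fold higher (adjusted p = 0.0141 from limma). SAM2 was at 9.11, 9.17, 9.20 and 9.34 against 8.73, 8.37 and 8.59, 1.56-fold higher (adjusted p = 0.00447 from limma). In both genes the lowest mine drainage array was higher than the highest control array. Neither probeset carries the mark of a design shared between transcripts, but probe sequences were not examined, and the 2 signals may not be fully separate.

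SAM4 and MHT1 encode methyltransferases that make methionine from homocysteine, SAM4 with S-adenosylmethionine and MHT1 with S-methylmethionine as methyl donor. SAM4 was at 8.09, 7.70, 7.86 and 7.84 in mine drainage and 7.50, 7.13 and 7.12 in control, 1.54-fold higher (difference 0.62, adjusted p = 0.00867 from limma). MHT1 was at 5.54, 5.06, 4.92 and 5.51 against 5.91, 5.97 and 5.78, 1.54-fold lower (difference -0.63, adjusted p = 0.0176 from limma). MHT1 split within mine drainage, replicates 2 and 3 being lower than 1 and 4. Several of these calls were lost with 1 array left out, which also lowers the precision, or under another model or test. SAM1 missed the threshold without control replicate 2 (0.55, adjusted p = 0.0719) or 3 (0.53, adjusted p = 0.0633), and MHT1 without control replicate 2 (-0.59, adjusted p = 0.0776). With the 3' minus 5' value of each array as a covariate the difference was 0.31 for SAM1 and 0.37 for SAM4 (adjusted p = 0.16 and 0.098), and in the gene-by-gene comparison SAM1, SAM4 and MHT1 had adjusted p of 0.0704, 0.0509 and 0.0826.

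**Figure D3:**
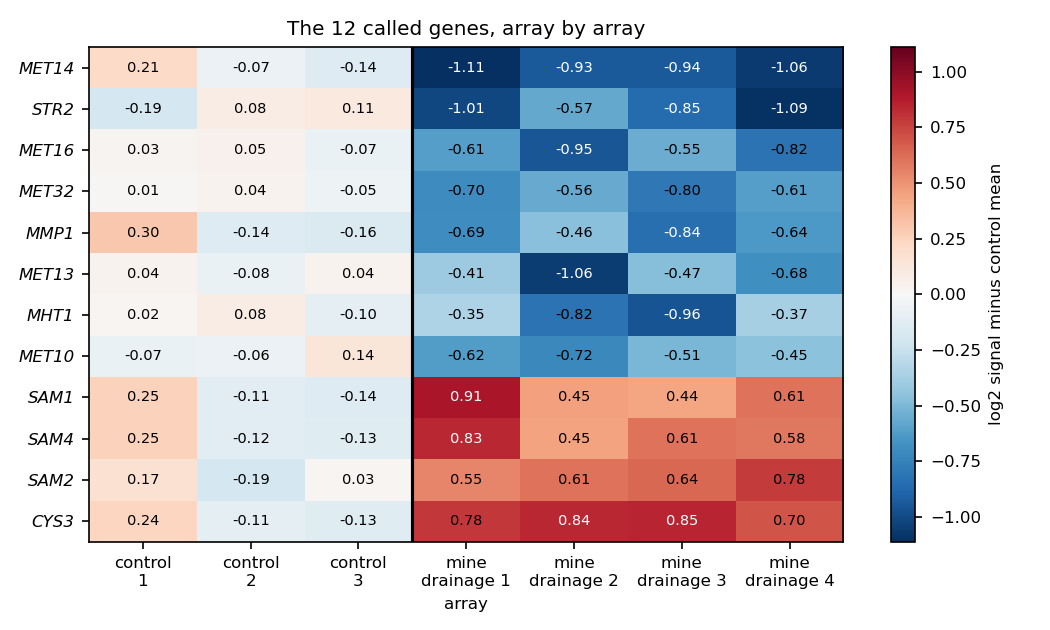
Log2 signal minus the mean of the 3 control arrays (colour and printed value) for the 12 genes past the threshold (y axis, from the most lowered to the most raised) on each of the 7 arrays (x axis; a black line separates control from mine drainage). The 8 lower genes are blue on all 4 mine drainage arrays and the 4 higher genes red; in SAM1, SAM4, SAM2 and CYS3 control array 1 is the control nearest to mine drainage.

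Among the permeases of methionine and its derivatives 1 of 4 genes fell. MMP1, the S-methylmethionine permease, was at 5.27, 5.50, 5.12 and 5.32 in mine drainage and 6.26, 5.82 and 5.80 in control, 1.58-fold lower and without overlap (difference -0.66, standard error 0.14, adjusted p = 0.00877 from limma, and 0.0545 in the gene-by-gene comparison). MMP1 and MHT1, the permease and the methyltransferase for S-methylmethionine, are neighbours on chromosome XII in the R64 gene table, and both fell. SAM3, the S-adenosylmethionine permease, neighbours SAM4 on chromosome XVI. Unlike SAM4, it differed by -0.30 (95% interval -0.65 to 0.04, adjusted p = 0.153), a contrast between neighbours that was not tested. MUP1, the high-affinity methionine permease, and MUP3, a low-affinity one, differed by 0.17 and -0.13 (adjusted p = 0.432 and 0.47). In MUP1, control replicate 1, at 6.99, lay above all mine drainage arrays (6.67 to 6.79) and the other controls below them (6.42 and 6.27). Without control replicate 1 MUP1 was higher by 0.39 (adjusted p = 0.0219). Leaving out other single arrays instead gave an adjusted p of up to 0.924 from limma.

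The genes for organic sulfur sources did not pass. JLP1, a sulfonate dioxygenase, differed by -0.22 (95% interval -0.56 to 0.11). BDS1, an alkyl- and arylsulfatase, had signals of 1.42 to 2.21, near the level of S. pombe probesets, and its difference of 0.06 says little about a change.

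Of the 6 regulators, 1 fell. MET32 encodes a zinc finger protein that brings Met4 to DNA. It was at 5.85, 5.99, 5.75 and 5.94 in mine drainage and 6.56, 6.59 and 6.50 in control, 1.59-fold lower (difference -0.67, standard error 0.09, adjusted p = 0.00254 from limma). The gap of 0.51 between the groups was larger than the whole range of either. MET31, its close relative, was at 6.86, 6.72, 6.36 and 6.76 against 6.99, 7.06 and 6.93. Its groups did not overlap either, but the difference of -0.32 did not pass (95% interval -0.60 to -0.04, adjusted p = 0.0814). Without mine drainage replicate 1 it was -0.38 (adjusted p = 0.0477), but with other single arrays left out the adjusted p from limma reached 0.231.

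MET4, the activator itself, was at 7.47, 7.52, 7.28 and 7.50 in mine drainage and 7.60, 7.58 and 7.59 in control. All mine drainage arrays were lower, by a difference of -0.15 that did not pass (95% interval -0.36 to 0.07, adjusted p = 0.259). MET28, a bZIP protein of the Met4 complex, was at 6.50, 6.50, 6.22 and 6.50 against 6.50, 6.37 and 6.50 (difference -0.03). MET30, the F-box protein that targets Met4, was at 8.41, 8.06, 7.94 and 8.16 against 7.97, 8.16 and 8.06 (difference 0.08). CBF1, a helix-loop-helix protein that also binds centromeres, was at 7.17, 6.85, 6.71 and 7.03 against 6.88, 6.83 and 6.82 (difference 0.10). For MET28, MET30 and CBF1 the groups overlapped, with adjusted p of 0.862, 0.647 and 0.562.

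Over the 35 genes the groups did not overlap in 14, with mine drainage below control in 10 and above in 4. Over all probesets the share without overlap was 38.2%, with 20.5% below and 17.7% above. Of the 23 genes that did not pass, 18 had a 95% interval inside a 1.5-fold change, and for MET3, MET1, STR3, SAM3 and MET31 the interval reached past it. Standard errors over the 35 genes ran from 0.09 for CYS4 to 0.36 for STR3, with a median of 0.132.

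Related genes were set side by side through the log2 ratio within each array, in 7 pairs chosen after their values were seen. SAM4 and MHT1 differed in their response by 1.24: relative to the control mean, the ratio was 0.956 to 1.57 in mine drainage and -0.2 to 0.227 in control (exact permutation p = 0.0286, the smallest that 35 splits allow, adjusted p = 0.133 over the 7 pairs). The difference was 0.68 for MET12 and MET13 and 0.35 for MET31 and MET32, again with no overlap between groups (exact permutation p = 0.0571 for each, adjusted p = 0.133). The difference between SUL1 and SUL2 was -0.12, between SAM3 and MMP1 0.35 and between MUP1 and MUP3 0.30 (exact permutation p = 0.514, 0.2 and 0.143). SAM1 and SAM2 differed in their response by -0.04, with a ratio of -0.198 to 0.366 in mine drainage and -0.165 to 0.0842 in control (exact permutation p = 0.914). None of the 7 passed after adjustment. With no exact p able to fall below 0.0286, a pass would have needed most of the 7 pairs at that floor. The adjusted outcome therefore says little about any single pair.

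**Figure D4:**
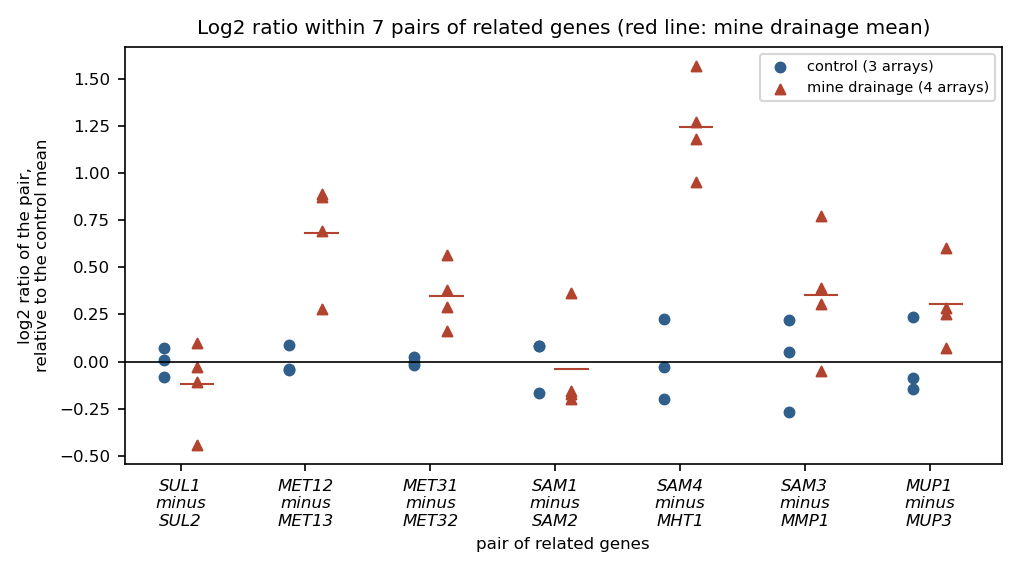
Log2 ratio within 7 pairs of related genes (x axis) on each array, relative to the mean of the control arrays (y axis), for 3 control arrays (blue circles) and 4 mine drainage arrays (red triangles, with a red line at their mean). The mine drainage arrays lie clear of the controls for SAM4 minus MHT1 (mean 1.24), MET12 minus MET13 (0.68) and MET31 minus MET32 (0.35), and on both sides of 0 for SAM1 minus SAM2.

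Control replicate 1 was the highest control in each of the 4 genes that rose. It lay between the mean of the other controls and that of mine drainage, at 0.349 to 0.521 of the way, where the median over all 795 probesets that rose was 0.365. In the 8 genes that fell it lay on that path in 2, MET10 and STR2, and on the far side of the mean of the other controls in 6. Of those 6, MET32, MET16, MHT1 and MET13 had it close to that mean (-0.028 to -0.083). MET14 and MMP1 had it farther off (-0.349 and -0.896). Over all 942 probesets that fell, 85.4% had control replicate 1 on the mine drainage side of that mean. The median over those 8 genes was -0.0598, and over all 942 probesets that fell it was 0.313. Without control replicate 1, 5 of the 35 genes rose and 8 fell.

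Other genes of sulfur metabolism, outside the 35, were read from 5 lists with 32 genes, 31 of them with a probeset. Of the 31, 7 rose and 3 fell, or 22.6% and 9.68%, against 14.5% and 17.1% of all probesets. The recycling of S-adenosylhomocysteine and methylthioadenosine, by-products of S-adenosylmethionine, had 3 of 8 higher and 1 lower. ADO1, the adenosine kinase that removes adenosine from this cycle, was at 9.75, 9.87, 9.78 and 9.71 in mine drainage and 9.06, 8.58 and 8.35 in control, 2.16-fold higher (adjusted p = 0.00254 from limma). MDE1, a dehydratase of methionine salvage, was 1.87-fold higher, and SPE2, the S-adenosylmethionine decarboxylase of polyamine synthesis, 1.39-fold (adjusted p = 0.012 and 0.011). ADI1, the acireductone dioxygenase later in methionine salvage, fell from 8.16, 8.44 and 8.37 to 7.64, 7.52, 7.62 and 7.84, 1.59-fold (adjusted p = 0.00396 from limma). SAH1, the S-adenosylhomocysteine hydrolase, differed by 0.19 (adjusted p = 0.202).

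Of 10 genes of glutathione and cysteine use 2 rose and none fell, OPT1, a glutathione and oligopeptide transporter, by 0.45 and IRC7, a beta-lyase that acts on cysteine conjugates, by 0.42 (adjusted p = 0.032 and 0.0363). GSH1 and GSH2, of glutathione synthesis, differed by -0.17 and -0.05. None of 4 genes of homoserine and folate supply passed, with differences from -0.27 for MET7 to 0.18 for HOM2. Of 5 genes of sulfite export and oxidised or organic sulfur 2 fell, MXR2, the mitochondrial methionine sulfoxide reductase, by 0.46 and SEO1, a putative permease with a dim signal of 1.66 to 3.23, by 0.70 (adjusted p = 0.0155 and 0.0418). Of 4 ubiquitin ligase partners of Met30, which act on many other proteins too, SKP1, the adaptor, and CDC34, the conjugating enzyme, rose by 0.33 and 0.31 (adjusted p = 0.0363 and 0.0315). Of these 10 calls, ADO1 and ADI1 kept theirs under all 17 alternatives run for single genes. The other 8 calls were lost under several alternatives. With the 3' minus 5' value as a covariate all 8 missed the threshold (adjusted p = 0.108 to 0.356), and the difference was 0.18 in place of 0.45 for OPT1 and -0.30 in place of -0.46 for MXR2. In the gene-by-gene comparison OPT1, IRC7, MDE1, SEO1, MXR2 and SKP1 missed it (0.0544 to 0.147), with the coding length trend subtracted SEO1, SKP1 and CDC34 did (0.0599 to 0.0722), and with further quantile normalization SEO1 did (0.057). With 1 array left out, which also lowers the precision, calls were lost too. All 8 missed the threshold without control replicate 2 (adjusted p = 0.057 to 0.167), and 7, all but SPE2, without control replicate 3 (0.0552 to 0.14). OPT1 and SEO1 missed it without mine drainage replicate 1 (0.0612 and 0.0842), IRC7 and SKP1 without replicate 2 (0.0589 and 0.0605), OPT1, SEO1, SKP1 and CDC34 without replicate 3 (0.0548 to 0.086) and OPT1, IRC7, SKP1 and CDC34 without replicate 4 (0.0666 to 0.0895).

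**Figure D5:**
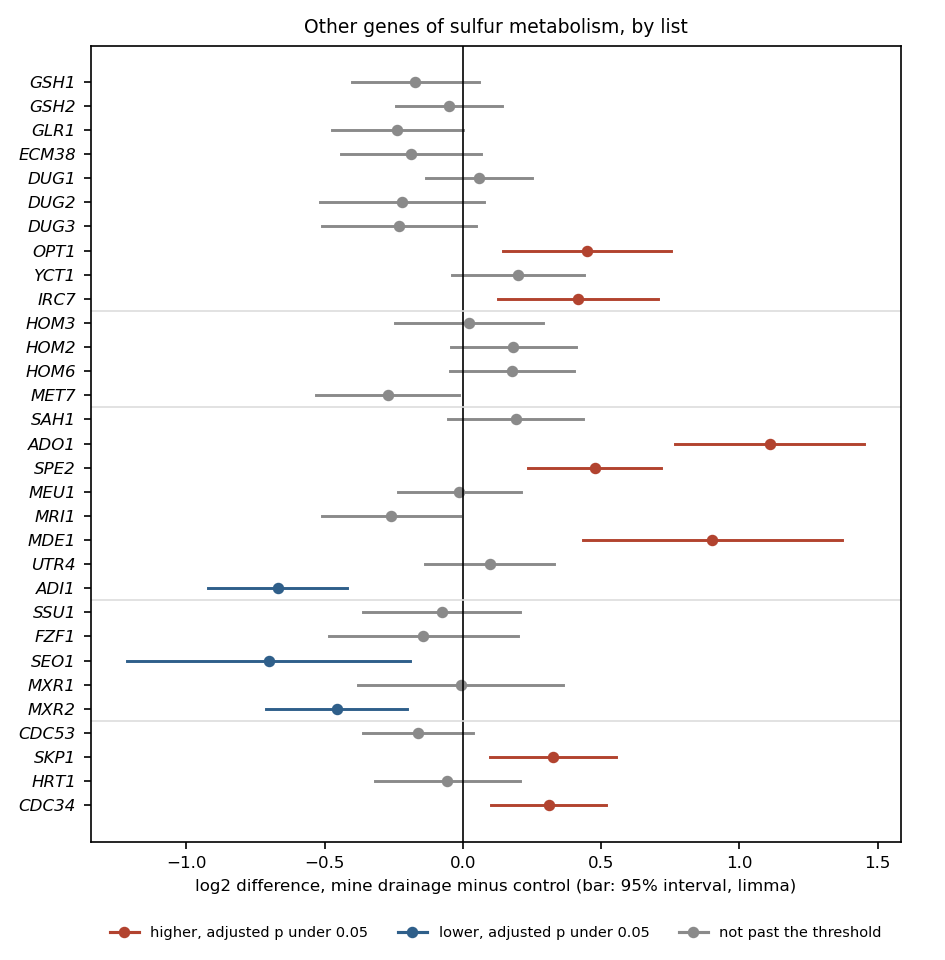
Log2 difference between mine drainage (4 arrays) and control (3 arrays) for 31 further genes of sulfur metabolism (y axis), in order of glutathione and cysteine use, homoserine and folate supply, recycling of S-adenosylmethionine by-products, sulfite and oxidised sulfur, and partners of Met30; bars are 95% intervals from limma. ADO1, at 1.11, and MDE1, at 0.90, lie farthest to the right, and SEO1, at -0.70, and ADI1, at -0.67, farthest to the left.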

How the data were processed

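The deposited values were log2 signals that the authors made from Affymetrix Yeast Genome 2.0 arrays by the Robust Multichip Average (RMA) in Partek Genomics Suite, with background correction, quantile normalization and summarization of probes. Quantile normalization brings all arrays to a common distribution, so a change shared by most genes would not be seen. Probesets were named through the platform annotation by Entrez identifier and an R64 gene table, with 12 symbols updated, which left 5498 S. cerevisiae probesets of 10928. Mine drainage minus control was tested with limma 3.58.1 in R 4.3.3 (lmFit and eBayes, 5 residual degrees of freedom, two-sided) with Benjamini-Hochberg adjustment over the 5498 and a threshold of 0.05. The test was tried on simulated data, drawn independently for each probeset and array with the spread that limma estimated. Differences between whole arrays were not simulated, so the trial does not bear on them. Arrays were grouped and numbered by their labels, and the study describes the cultures as independent. The number of arrays limits the precision. No source used here gives a scan batch, a hybridization batch or a genome build, and no coordinates are printed. Members, lists and alternatives were chosen with earlier results of these data known. All 35 genes are named, and of the other lists the genes past the threshold, with a few more chosen after their values were seen. SOA1, of those lists, is not analysed here. Promoter motifs were planned, but no sequence was used here.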

Additional observations from a re-analysis of the deposited data

Results flagged for a closer look

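In the 4 mine drainage arrays, 45 genes were looked at for a single array far from the rest, and 2 had one, where chance alone gives such an array in about 5% of groups. MET28 was at 6.22 on mine drainage replicate 3 and at 6.50 on each of the others. Its value was identical, 6.49955, on mine drainage replicates 1 and 4 and control replicates 1 and 3. Other genes have such ties too, as SUL1 does at 5.0653 on mine drainage replicates 1 and 4 and control replicate 1. The 5% does not take such ties into account. MDE1 was at 6.52 on mine drainage replicate 1 and between 7.02 and 7.08 on the others.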

How the results depend on the processing

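Counts for the 35 genes, 4 higher and 8 lower, stayed within 1.5 times under most alternatives. Leaving out 1 array at a time gave 3 to 5 higher and 7 to 9 lower, the gene-by-gene comparison 2 and 5, the 3' minus 5' value as a covariate 2 and 8, and array weights 6 and 12. MET14, MET16, MET10, STR2, CYS3, SAM2 and MET32 kept their calls under all 17 alternatives, and none of the 12 changed direction. The study's thresholds are not among the 17. MET10, at 1.49-fold, lies short of their 1.5-fold limit, and STR3, which was not called, meets them (1.83-fold, unadjusted p = 0.0352 from limma). Each gene had 1 usable probeset, so probesets were not averaged. Same-numbered arrays did not deviate together (correlations -0.0651, -0.177 and 0.082), and with a replicate block, which leaves out mine drainage replicate 4, 4 rose and 8 fell. Of the other sulfur genes, IRC7, SPE2, MXR2, SKP1 and CDC34 missed the threshold with the block (adjusted p = 0.0602 to 0.134). Only genes that had not passed changed sign. With the covariate these were MET2 (-0.18), MET6 (-0.047), MET12 (-0.17), CYS4 (-0.0055), MUP1 (-0.013), BDS1 (-0.11), MET30 (-0.047) and CBF1 (-0.069). With array weights they were MET5 (0.10), MET17 (0.10), BDS1 (-0.067), MET28 (0.052) and MET30 (-0.0097). A coding length trend turned SUL2 (0.073) and MET5 (0.11), further quantile normalization SUL2 (0.025), CYS4 (-0.061) and MET28 (0.052), and the replicate block MET12 (-0.030) and CYS4 (-0.00034). Leaving out 1 array gave ranges across 0 for SUL2 (-0.205 to 0.039), MET5 (-0.11 to 0.10), MET17 (-0.15 to 0.066), CYS4 (-0.014 to 0.047), MET2 (-0.039 to 0.32), MET8 (-0.010 to 0.13), MET12 (-0.055 to 0.10), BDS1 (-0.11 to 0.15), MET30 (-0.0083 to 0.15) and MET28 (-0.070 to 0.044). The causes were not tested. Over all probesets the scaling moved the split of higher to lower calls from 795 and 942 as deposited to 849 and 777 with the length trend subtracted. BDS1 and SEO1 were dim, which limits what their differences show.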
